A study of Schizosaccharomyces pombe with 40 samples.

Results

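The 8 genes described here are 4 enzymes of glutamate and glutamine metabolism (gdh1, gdh2, gln1 and glt1) and 4 amino acid permeases (aat1, isp5, put4 and cat1) of fission yeast, Schizosaccharomyces pombe. They are 8 of the 4794 named genes that could be tested, with 16 of the 9858 probes, and all 8 passed the filter on missing values. They were named by symbol, and the set was chosen by measured values: the log2 ratio of gdh2 was seen to increase and that of aat1 to decrease in hydroxyurea. The changes in hydroxyurea are therefore given as a description, without a test, and so are differences between strains in the changes of gdh2 and aat1. Tests were made of the ratio to the wild-type reference before the drug, of the strains' levels, and, for the other 6 genes, of whether the time course differed between strains. The 0 min arrays are also the baseline of the change that chose gdh2 and aat1, so their 0 min tests share arrays with the choice.

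RNA was compared on 40 two-colour arrays, each giving for every probe the log2 ratio of a strain to a pooled wild-type reference from mid log phase. All 4 strains carry an altered rep2, the gene of an activator of the G1/S transcription complex MBF: Cdelta21, Cdelta53 and Cdelta94 are truncations and 2C/S-H/Y is a site mutation. Cells grew in the rich medium YES at 30 degrees to mid log phase and were taken at 0, 10, 30, 60 and 120 min in 8 mM hydroxyurea, an inhibitor of ribonucleotide reductase, with 2 arrays per strain and time. Every group carries the drug after 0 min, no array holds wild-type cells as the sample, and the strain carried Cy5 and the reference Cy3 on all arrays. The labels name 1 strain per allele, with nothing on clones, and their description field also names another mutant, so strain names come from the titles.

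Fission yeast assimilates ammonium through the NADP-dependent glutamate dehydrogenase Gdh1 and through glutamine synthetase, Gln1, whose product serves glutamate synthase, Glt1, to make glutamate. The NAD-dependent glutamate dehydrogenase Gdh2 works in the other direction and releases ammonium and 2-oxoglutarate from glutamate. Amino acid permeases of the plasma membrane bring amino acids into the cell: Aat1 is a general amino acid permease, Cat1 takes up cationic amino acids, Isp5 was found as a gene induced during sexual differentiation, and Put4 is named for its likeness to the proline permease of budding yeast. Both the expression of permeases and their placement at the membrane respond to the nitrogen source.

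Several arrays call for care. The 2 arrays of every Cdelta53 group nearly repeated each other. The spread of the difference across probes was taken as the median absolute deviation, scaled to stand for an SD. It was 0.052 to 0.0672 in the 6 pairs of near-repeats, against 0.137 to 0.465 in the other pairs of arrays from 1 group. The remaining near-repeat pair joins 1 array of 2C/S-H/Y at 30 min with 1 at 60 min. The Cdelta53 values below therefore stand for 1 sample per time. They enter the tests as separate arrays, and calls that were lost when near-repeats were counted once are given beside the call or the count. That alternative was not examined for pairs of strains in the mean over all times or for the lists of related genes. The change in Cdelta94 resembled the 120 min change of the other 3 strains most at the time labelled 30 min (correlation 0.67 across features, with 0.49 at 60 min and 0.33 at 120 min), whereas in the other strains it increased with time, so times of Cdelta94 are those of the labels and are in doubt. In 2C/S-H/Y the 0 min and 10 min means correlated at 0.59, against 0.83 to 0.95 in the other strains. The 2 rep2 probes had means of −5.19 ± 0.24 and −5.09 ± 0.44 (SD over 10 arrays) in Cdelta94, −1.36 and −4.68 in Cdelta53, −0.69 and −0.90 in Cdelta21, and 0.63 and −0.10 for 2C/S-H/Y.

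The NAD-dependent glutamate dehydrogenase gene gdh2 differed between the strains before the drug by more than any other member. At 0 min its log2 ratio to the reference was 2.50 and 2.48 in the arrays of Cdelta94, 1.79 and 1.58 in Cdelta21, 0.01 as the mean of the near-repeats of Cdelta53, and −0.63 and −0.45 in 2C/S-H/Y. No pair of strains overlapped, and the order ran Cdelta94, Cdelta21, Cdelta53, 2C/S-H/Y. Against the reference gdh2 was higher in Cdelta94 by 2.49 (SE 0.08, adjusted p = 1.07e-20 in limma with Benjamini-Hochberg adjustment over all features) and in Cdelta21 by 1.69 (SE 0.08, adjusted p = 3.67e-16). It was lower in 2C/S-H/Y, at −0.54 (SE 0.08, adjusted p = 1.88e-06), and Cdelta53 was at 0.01 with a 95% interval of −0.14 to 0.17. Each neighbouring pair in the order differed: Cdelta21 minus Cdelta94 was −0.80 (adjusted p = 7.84e-07), Cdelta21 minus Cdelta53 was 1.67 (adjusted p = 2.32e-12) and Cdelta53 minus 2C/S-H/Y was 0.55 (adjusted p = 0.000111). With quantile normalization the first of these became −0.21 (adjusted p = 0.19); the arrays of Cdelta94 had the widest spread, with a median interquartile range of 0.757 against 0.548 in Cdelta21.

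**Figure D1:**
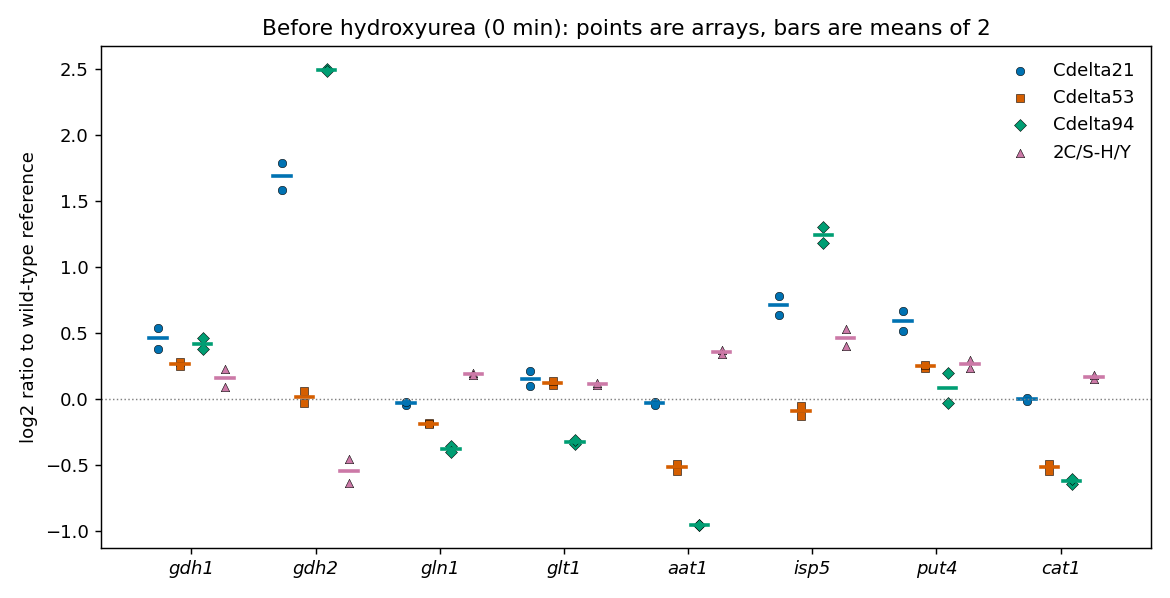
Log2 ratio to the wild-type reference before hydroxyurea (vertical axis) for the 8 genes in the 4 strains, with each point 1 array and each bar the mean of the group. The strains separate most at gdh2, from −0.63 in an array of 2C/S-H/Y to 2.50 in an array of Cdelta94.

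In hydroxyurea gdh2 ran different courses from these starting points. In Cdelta21 the arrays went from 1.79 and 1.58 at 0 min to 0.87 and 0.63 at 10 min, 1.73 and 1.60 at 30 min, 2.22 and 2.35 at 60 min and 3.89 and 3.78 at 120 min. The 10 min arrays were below and the 120 min arrays above all other arrays of that strain. In Cdelta53 the near-repeat arrays read −0.03 and 0.06 at 0 min, −0.11 and −0.07 at 10 min, 0.51 and 0.52 at 30 min, 1.54 and 1.52 at 60 min, and 2.69 on both at 120 min. From 10 min on, each Cdelta53 time was above the one before. In 2C/S-H/Y the arrays read −0.63 and −0.45, then 0.64 and 0.52, 0.83 and 0.86, 0.91 and 1.17, and 1.73 and 1.97, so all arrays in the drug were above both 0 min arrays. In Cdelta94 they read 2.50 and 2.48, 2.31 and 2.41, 3.44 and 3.48, 3.23 and 3.07, and 2.64 and 2.49; the times labelled 30 and 60 min were above the rest, and 120 min overlapped 0 min. From 0 to 120 min the log2 change was 2.68 in Cdelta53, 2.39 in 2C/S-H/Y, 2.14 in Cdelta21 and 0.08 in Cdelta94. The mean of the 4 strains was −0.01 at 10 min, 0.71 at 30 min, 1.09 at 60 min and 1.82 at 120 min (SE 0.05, 3.54-fold), and it was 2.40 at 120 min without Cdelta94.

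**Figure D2:**
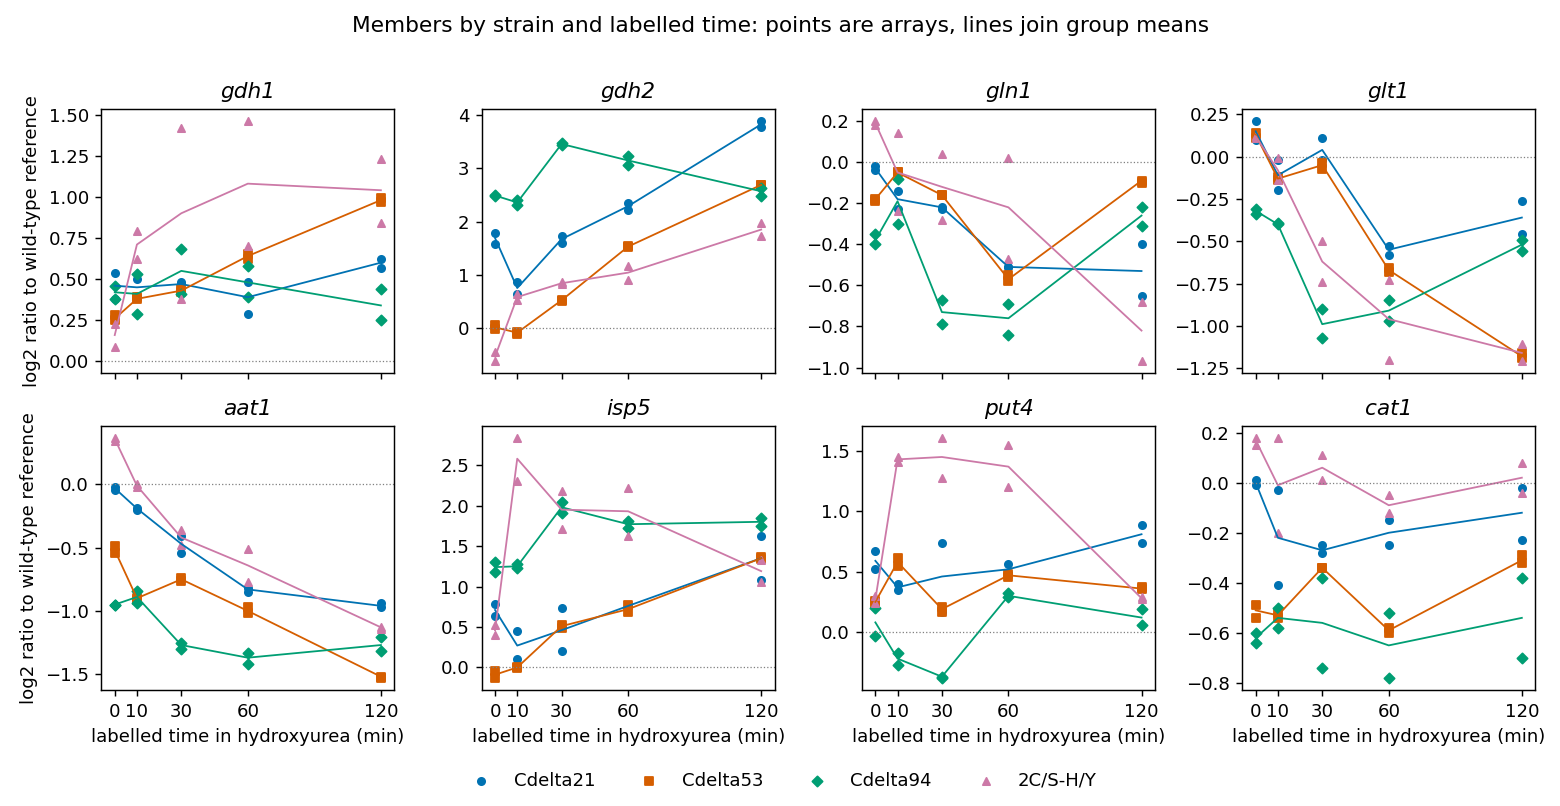
Log2 ratio to the wild-type reference (vertical axis) against the minutes in hydroxyurea (horizontal axis), 1 panel per gene, with points for single arrays and lines through the mean of each strain. In the gdh2 panel 3 strains end at their highest value, and Cdelta94 has its highest value at the time labelled 30 min.

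Of the 6 genes other than gdh2 and aat1, the time course of 4 differed between the strains (interaction F test over the 5 times; adjusted p under 0.05), where 52.6% of all features tested did. The 4 were put4 (adjusted p = 7.77e-08), isp5 (1.53e-07), glt1 (1.29e-06) and gln1 (0.000367). The genes gdh1 (adjusted p = 0.101) and cat1 (0.606) did not pass. All 4 still passed with near-repeats counted once, where gln1 had the highest adjusted p (0.0101), and without the Cdelta94 arrays labelled 30 and 120 min, where gln1 was again highest (0.00453). For gdh2, as a description, the change to 120 min differed by 2.07 for Cdelta21 minus Cdelta94 (SE 0.15) and by 2.60 for Cdelta53 minus Cdelta94, and Cdelta94 minus 2C/S-H/Y was −2.32. These 3 values rest on the Cdelta94 times in doubt. Among the other strains, Cdelta21 minus 2C/S-H/Y was −0.25 and Cdelta53 minus 2C/S-H/Y was 0.29. The latter ran from −0.22 to 0.41 over the alternatives other than leaving out single arrays, so its direction was not kept. Cdelta21 minus Cdelta53 was −0.53, and it was −0.12 after quantile normalization and −0.35 with the first probe only.

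The NADP-dependent glutamate dehydrogenase gene gdh1 varied less. Its 40 array values lay between 0.09 and 1.46, that is above the reference throughout, and the lowest and the highest value were both from 2C/S-H/Y. At 0 min it was higher than the reference in Cdelta21 (0.46, SE 0.15, adjusted p = 0.0104) and Cdelta94 (0.42, SE 0.15, adjusted p = 0.0148). Neither call held under every alternative. The Cdelta21 call was lost without its first array (0.38), and the Cdelta94 call without either of its arrays (0.38 or 0.46). The Cdelta94 call was also lost with the second probe only (0.28, adjusted p = 0.093). No difference between strains passed at 0 min (adjusted p = 0.472); the widest difference, Cdelta21 minus 2C/S-H/Y, was 0.30 with a 95% interval of −0.13 to 0.73. In 2C/S-H/Y the arrays of 1 time disagreed, with 1.42 and 0.38 at 30 min and 1.46 and 0.70 at 60 min. The arrays at 1.42 and 1.46 are the near-repeat pair of this strain. The interaction of gdh1 did not pass with near-repeats counted once. Nor did it pass with the first probe only (adjusted p = 0.286) or without the Cdelta94 arrays labelled 30 and 120 min (0.174). It passed with the second probe only (0.0408), with a replicate block (0.0488) and without the whole strain 2C/S-H/Y (0.00418). The last was an alternative chosen after seeing the data. Its side of the threshold also changed when single 2C/S-H/Y arrays of 30 or 60 min were left out. The change from 0 to 120 min was −0.07 for Cdelta94, 0.14 for Cdelta21, 0.72 for Cdelta53 and 0.88 for 2C/S-H/Y. Its 2 probes also differed, by 0.20 on average over the arrays, and in Cdelta53 at 0 min they read 0.57 and 0.56 at the first probe against −0.02 and −0.07 at the second.

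The glutamine synthetase gene gln1 started near the reference. At 0 min its arrays read 0.20 and 0.18 for 2C/S-H/Y, −0.04 and −0.02 for Cdelta21, −0.18 in Cdelta53 as a mean, and −0.35 and −0.40 in Cdelta94. It was lower than the reference in Cdelta94 (−0.38, SE 0.10, adjusted p = 0.00111), and Cdelta94 minus 2C/S-H/Y was −0.56 (SE 0.13, adjusted p = 0.000679). Neighbours in the order of strains (2C/S-H/Y, Cdelta21, Cdelta53, Cdelta94) did not differ past the threshold. At 120 min the arrays read −0.09 and −0.10 in Cdelta53, −0.22 and −0.31 in Cdelta94, −0.40 and −0.65 in Cdelta21, and −0.68 and −0.97 in 2C/S-H/Y, where the lowest values of the gene at that time stood. The log2 change from 0 min was −1.01 in 2C/S-H/Y, against 0.09 in Cdelta53 and 0.11 in Cdelta94. Cdelta53 minus 2C/S-H/Y in that change was 1.10 (SE 0.19, adjusted p = 9.15e-05). In Cdelta94 the lowest arrays were −0.67 and −0.79 at 30 min and −0.84 and −0.69 at 60 min.

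The glutamate synthase gene glt1 was at 0.10 and 0.21 in Cdelta21, 0.13 in Cdelta53 as a mean, 0.11 and 0.12 in 2C/S-H/Y, and −0.34 and −0.31 in Cdelta94 at 0 min. Cdelta94 was thus below the other strains, which overlapped each other. It was lower than the reference in Cdelta94 (−0.32, SE 0.08, adjusted p = 0.000957), although the first probe alone gave −0.20 (adjusted p = 0.116). Cdelta21 minus Cdelta94 was 0.48 (adjusted p = 0.000801), Cdelta53 minus Cdelta94 was 0.45 (0.00224) and Cdelta94 minus 2C/S-H/Y was −0.44 (0.00145). The last of these calls was lost under 1 of 48 alternatives. Its value was −0.56 to −0.32 over the alternatives other than leaving out single arrays. At 120 min the arrays of Cdelta53 read −1.19 and −1.16 and those of 2C/S-H/Y −1.11 and −1.21, below the −0.26 and −0.46 of Cdelta21 and the −0.49 and −0.56 of Cdelta94. The change from 0 to 120 min was −1.30 in Cdelta53, −1.28 in 2C/S-H/Y, −0.51 in Cdelta21 and −0.20 in Cdelta94. Cdelta21 minus Cdelta53 in that change was 0.79 (SE 0.16, adjusted p = 0.00142; 0.42 with adjusted p = 0.0957 after quantile normalization). Cdelta21 minus 2C/S-H/Y was 0.76 (adjusted p = 0.00146; 0.58 with adjusted p = 0.0697 from the first probe alone). The mean change of the 4 strains was −0.20 at 10 min, −0.42 at 30 min, −0.79 at 60 min and −0.82 at 120 min.

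Among the permeases, the gene of the general permease Aat1 ordered the strains at 0 min as 2C/S-H/Y, Cdelta21, Cdelta53, Cdelta94, from high to low. Its arrays read 0.37 and 0.34 for 2C/S-H/Y, −0.02 and −0.04 for Cdelta21, −0.52 in Cdelta53 as a mean, and −0.95 on both arrays of Cdelta94. No strains overlapped. Against the reference aat1 was higher in 2C/S-H/Y (0.36, SE 0.06, adjusted p = 1.95e-05), lower in Cdelta53 (−0.52, SE 0.06, adjusted p = 4.73e-08) and lower in Cdelta94 (−0.95, SE 0.06, adjusted p = 1.64e-13). The neighbouring differences each passed, with Cdelta21 minus 2C/S-H/Y at −0.39 (adjusted p = 0.0012), Cdelta21 minus Cdelta53 at 0.49 (3.64e-05) and Cdelta53 minus Cdelta94 at 0.44 (0.000151). Each was lost with 1 of the 2 probes: the first probe alone gave −0.32 (adjusted p = 0.0923) and 0.15 (0.404) for the first and last of these, and the second probe alone gave 0.33 (0.0654) for Cdelta21 minus Cdelta53.

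In hydroxyurea aat1 read −0.97 and −0.94 at 120 min in Cdelta21, −1.14 and −1.13 for 2C/S-H/Y, −1.32 and −1.21 for Cdelta94, and −1.53 and −1.52 for Cdelta53. All strains were below the reference then, and the range of strains was narrower than at 0 min. In 2C/S-H/Y the values passed through 0.00 and −0.02 at 10 min, −0.48 and −0.36 at 30 min and −0.51 and −0.77 at 60 min. The arrays at −0.48 and −0.51 are the near-repeat pair of this strain. The log2 change from 0 to 120 min was −1.49 in 2C/S-H/Y, −1.01 in Cdelta53, −0.93 in Cdelta21 and −0.31 in Cdelta94, and the mean was −0.93 (SE 0.04). As a description, that change differed by 0.57 for Cdelta21 minus 2C/S-H/Y (SE 0.12), by 0.48 for Cdelta53 minus 2C/S-H/Y and by 1.18 for Cdelta94 minus 2C/S-H/Y. Cdelta21 minus Cdelta53 was 0.08, and the direction turned after quantile normalization, to −0.51.

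**Figure D3:**
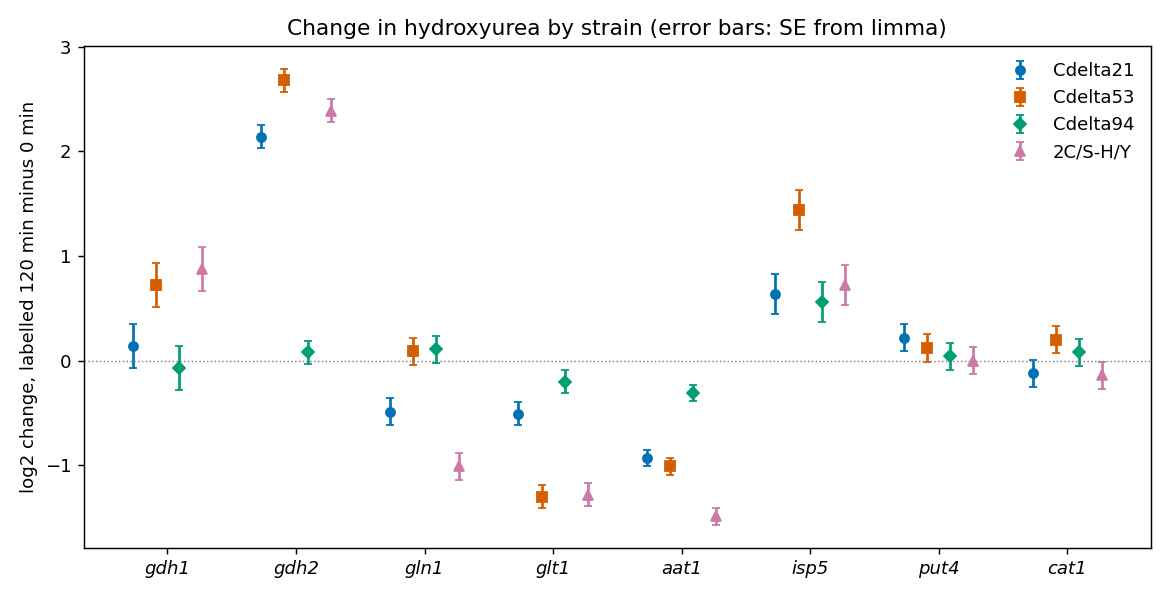
Log2 change from 0 to 120 min in hydroxyurea (vertical axis) for each gene and strain, with error bars for limma's SE. The changes of gdh2 are 2.68 in Cdelta53, 2.39 in 2C/S-H/Y, 2.14 in Cdelta21 and 0.08 in Cdelta94, whose times are in doubt.

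The permease gene isp5 was above the reference at 0 min in 3 strains. Its arrays read 1.30 and 1.18 in Cdelta94, 0.64 and 0.78 in Cdelta21, 0.40 and 0.53 in 2C/S-H/Y, and −0.13 and −0.05 in Cdelta53, where only the first probe had values. It was higher than the reference in Cdelta94 (1.24, SE 0.13, adjusted p = 6.5e-09), Cdelta21 (0.71, adjusted p = 7.5e-05) and 2C/S-H/Y (0.46, adjusted p = 0.00545; 0.40 with adjusted p = 0.12 without the second array). Cdelta53 minus Cdelta94 was −1.33 (SE 0.19, adjusted p = 2.73e-06). Cdelta21 minus 2C/S-H/Y was 0.24 (95% interval −0.14 to 0.63) and did not pass. Cdelta21 minus Cdelta94 was −0.53 (adjusted p = 0.0169), and −0.29 (adjusted p = 0.213) after quantile normalization.

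In 2C/S-H/Y isp5 had its highest values early in the drug. Its arrays there read 2.84 and 2.31 at 10 min, 2.18 and 1.71 at 30 min, 2.22 and 1.63 at 60 min, and 1.05 and 1.33 at 120 min. The arrays at 2.18 and 2.22 are the near-repeat pair of this strain. The 10 min arrays were above all arrays of the other strains at that time, where Cdelta94 had 1.28 and 1.23, Cdelta21 had 0.45 and 0.10, and Cdelta53 had 0.00 and −0.01. At 120 min the other strains read 1.62 and 1.08 in Cdelta21, 1.36 and 1.34 in Cdelta53, and 1.75 and 1.85 in Cdelta94, so that 2C/S-H/Y overlapped Cdelta21. The interaction of isp5 also passed without 2C/S-H/Y (adjusted p = 0.0013), an alternative chosen after seeing the data.

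The permease gene put4 had a similar outline in 2C/S-H/Y. Its arrays read 0.24 and 0.30 at 0 min, 1.41 and 1.45 at 10 min, 1.61 and 1.28 at 30 min, 1.55 and 1.20 at 60 min, and 0.27 and 0.29 at 120 min. Both ends of the course were thus close to each other and all middle arrays were above them. The arrays at 1.61 and 1.55 are the near-repeat pair of this strain, so 30 and 60 min are not separate there. At 10 min the other strains read 0.35 and 0.40 in Cdelta21, 0.55 and 0.61 in Cdelta53, and −0.27 and −0.17 in Cdelta94, all below 2C/S-H/Y. From 0 to 120 min the difference in put4 was 0.00 in 2C/S-H/Y, 0.04 in Cdelta94, 0.12 in Cdelta53 and 0.22 in Cdelta21, and no pair of strains passed the test in that change (the 95% intervals lay within −0.35 to 0.60). Without 2C/S-H/Y the interaction of put4 had an adjusted p of 0.0112. These courses start from the arrays that stood apart from the 10 min arrays of the same strain; their part in the result was not tested. Averaged over all times, Cdelta94 minus 2C/S-H/Y was −0.98 (SE 0.06, adjusted p = 6.78e-15) for put4 and −0.01 (95% interval −0.19 to 0.16) for isp5.

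Before the drug put4 was higher than the reference in Cdelta21 (0.59, SE 0.09, adjusted p = 6.53e-06), Cdelta53 (0.25, adjusted p = 0.0246) and 2C/S-H/Y (0.27, adjusted p = 0.0163), and it was 0.08 (95% interval −0.11 to 0.28) in Cdelta94. The Cdelta53 call was lost with near-repeats counted once (0.25) and with the second probe only (0.17, adjusted p = 0.249). The 2C/S-H/Y call was lost without its first array (0.30) and without its second (0.24). It was also lost with the first probe only (0.24, adjusted p = 0.0797) and with the second only (0.30, adjusted p = 0.0552).

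The cationic amino acid permease gene cat1, whose course did not pass the interaction test, differed between strains in level. Over all times its arrays ran from −0.20 to 0.18 in 2C/S-H/Y, −0.41 to 0.01 in Cdelta21, −0.60 to −0.29 in Cdelta53 and −0.78 to −0.38 in Cdelta94. The arrays of Cdelta94 and Cdelta53 overlapped each other, and those of 2C/S-H/Y lay above both. At 0 min it was lower than the reference in Cdelta94 (−0.62, SE 0.09, adjusted p = 1.39e-06) and Cdelta53 (−0.51, SE 0.09, adjusted p = 3.95e-05; −0.27 with adjusted p = 0.0593 from the first probe alone). Over all times Cdelta94 minus 2C/S-H/Y was −0.61 (SE 0.06, adjusted p = 1.22e-10), and Cdelta53 minus Cdelta94 was 0.13 (95% interval 0.01 to 0.24, adjusted p = 0.0558). The change from 0 to 120 min was between −0.14 and 0.20 in the 4 strains. The 2 probes of cat1 tracked each other least among the members, with a correlation of 0.49 over the arrays and a mean difference of 0.34. In Cdelta21 at 0 min the first gave 0.29 (adjusted p = 0.0459) and the second −0.30 (adjusted p = 0.0169), for a mean of 0.00.

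**Figure D4:**
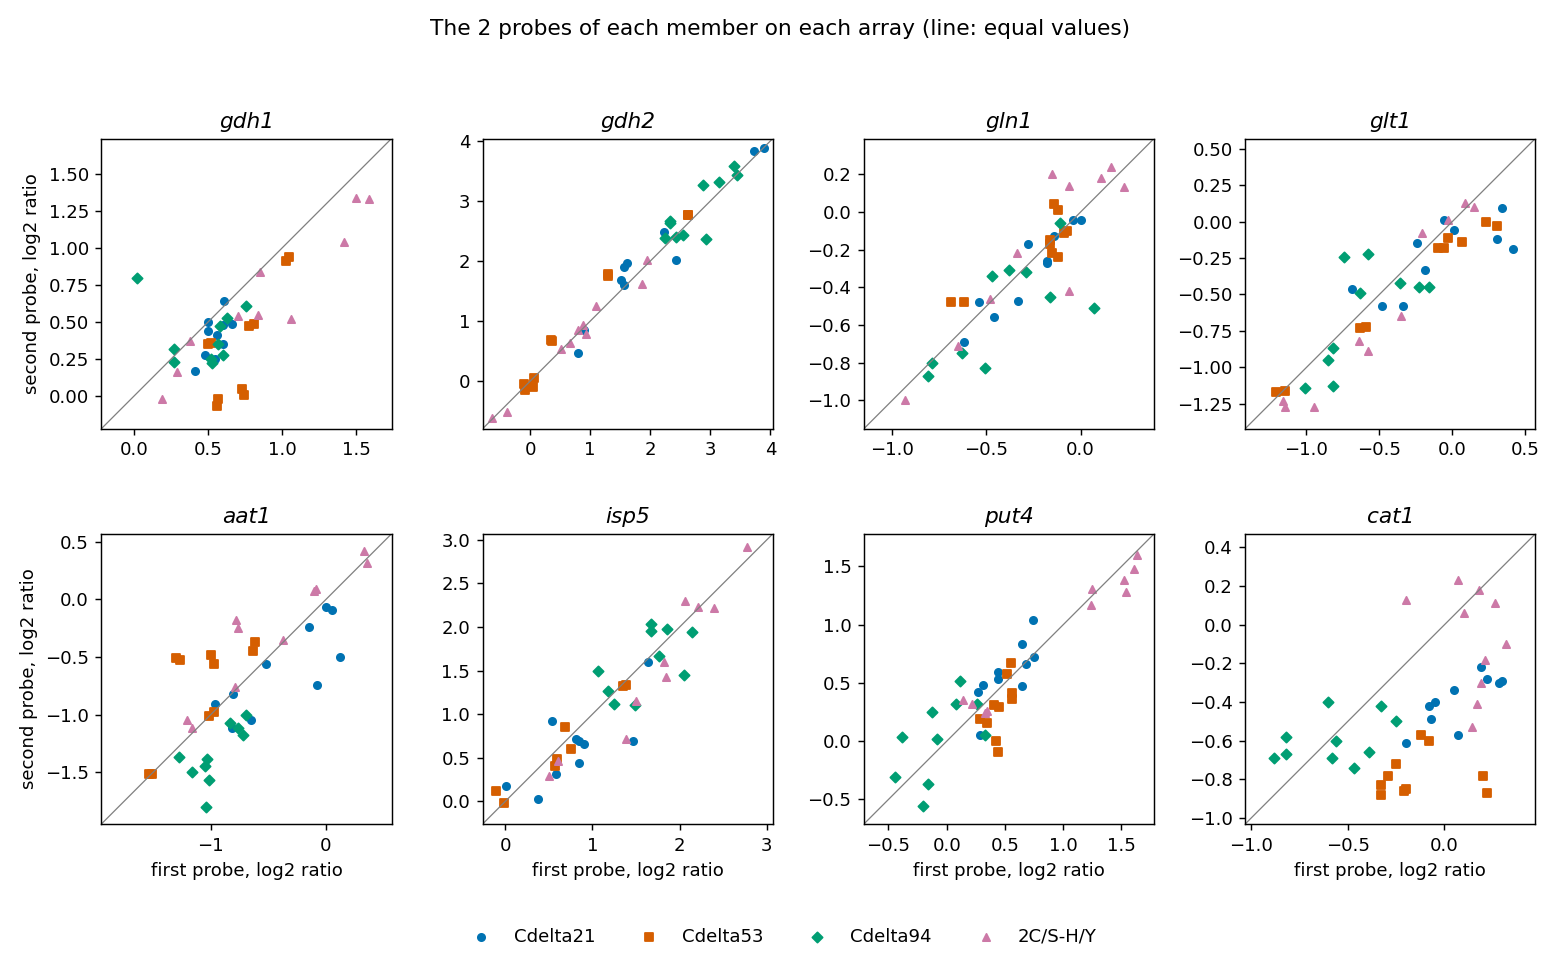
First probe against second probe of each member, both as log2 ratio to the wild-type reference, with each point 1 array and the line marking equal values. The probes of gdh2 follow each other (correlation 0.98 over 40 arrays), and those of cat1 do so least (0.49).

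Counted over the set at 0 min, Cdelta21 had 4 of the 8 genes above the reference past the threshold and 0 below, where 27.8% of all features were higher and 26.1% lower. Cdelta53 had 1 higher and 2 lower (29% and 28.3% of all features). Cdelta94 had 3 higher and 4 lower (31.6% and 35.8%). For 2C/S-H/Y these were 3 and 1 (24.3% and 24.3%). The strains differed at 0 min in 7 of the 8 genes, all but gdh1, where 83.9% of all features did, and in the mean over all times in all 8, where 97.1% did; with near-repeats counted once gdh1 did not pass the latter (adjusted p = 0.0712). Between single pairs of strains at 0 min, 5 of the 8 differed for Cdelta21 and Cdelta53 (44.1% of all features), 7 for Cdelta21 and Cdelta94 (60.9%), 2 for Cdelta21 and 2C/S-H/Y (29.4%), 4 for Cdelta53 and Cdelta94 (44.7%), 5 for Cdelta53 and 2C/S-H/Y (52.8%) and 6 for Cdelta94 and 2C/S-H/Y (64.8%). With near-repeats counted once, put4 (adjusted p = 0.163) and cat1 (0.0506) were lost from the first of these pairs, leaving 3, and gln1 (0.0952) and isp5 (0.0771) from Cdelta53 and 2C/S-H/Y, leaving 3. In the mean over all times, 6 differed for Cdelta21 and Cdelta53 (68.8%), 7 for Cdelta21 and Cdelta94 (78.7%), 7 for Cdelta21 and 2C/S-H/Y (65.5%), 6 for Cdelta53 and Cdelta94 (73%), 7 for Cdelta53 and 2C/S-H/Y (80%) and 6 for Cdelta94 and 2C/S-H/Y (87.1%). These pairs in the mean were not examined with near-repeats counted once. With 8 genes, the counts at 0 min and over all times do not set the set apart from the shares of all features. In the change from 0 to 120 min, without gdh2 and aat1, 3 of the other 6 genes differed between Cdelta21 and Cdelta53 (15.8% of all features), 1 between Cdelta21 and 2C/S-H/Y (18.6%), 2 between Cdelta53 and Cdelta94 (22.5%), 2 between Cdelta53 and 2C/S-H/Y (27.9%) and 3 between Cdelta94 and 2C/S-H/Y (26%). Between Cdelta21 and Cdelta94 limma called 0 of the 6 (5.52%), with 1 at an unadjusted p under 0.05. With near-repeats counted once each of the 3 counts with Cdelta53 became 1: gln1 (adjusted p = 0.239) and isp5 (0.251) were lost against Cdelta21, and isp5 against Cdelta94 (0.138) and 2C/S-H/Y (0.197). These pairs share strains and are not independent of each other.

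In the gene order of the RefSeq table for assembly ASM294v3, isp5, cat1 and put4 lie in 1 stretch of chromosome I, with 8 coding genes between isp5 and cat1 and 0 between cat1 and put4. The neighbours cat1 and put4 had different courses in 2C/S-H/Y: at 10 min put4 stood at 1.41 and 1.45 and cat1 at 0.18 and −0.20.

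The genes most like gdh2 over the 20 group means were SPOM_SPBC3H7.08C (Pearson correlation 0.942), aim19 (0.924), SPOM_SPCC757.11C (0.915), SPOM_SPAC977.15 (0.906) and nc-pho1 (0.904). Those most like aat1 were lsk1 (0.947), gaf1 (0.938), nog1 (0.935), rgf1 (0.924) and wee1 (0.922). The group means share strains and the reference, and the correlations are a description. Of these, gaf1 encodes a GATA transcription factor that acts in the nitrogen response. Its 0 min ratio was 0.18 in 2C/S-H/Y, −0.23 in Cdelta21, −0.61 in Cdelta53 and −1 in Cdelta94, which is the order of strains seen for aat1. The order was the same for rgf1 and wee1, and in lsk1 and nog1 Cdelta21 was above 2C/S-H/Y. These 0 min means are among the 20 that gave the correlations, so a shared order is no separate result. The log2 change of gaf1 at 120 min was −1.14 in 2C/S-H/Y, −0.62 in Cdelta21, −0.68 in Cdelta53 and −0.03 in Cdelta94.

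Around the 8 genes, 3 lists of related genes were followed for the change from 0 to 120 min over the 4 strains, in which 23.9% of all features rose and 24.4% fell. Of 32 tested enzymes of glutamate, 2-oxoglutarate, arginine, proline or GABA metabolism and of steps leading to it, such as the citrate cycle, 13 rose, 3 fell and 16 did not pass, with a median change of 0.12 against 0 for all features. The largest rises were of idp1, an isocitrate dehydrogenase (0.55), caa1, an aspartate aminotransferase (0.53), and arg12, argininosuccinate synthase (0.51), and the falls were of aru1, listed under its older name car3 (−0.69), car2, ornithine transaminase (−0.45), and aco1, an aconitase (−0.27). Of 21 tested names from a list of other amino acid, peptide and ammonium transporters, 5 rose, 7 fell and 9 did not pass, with a median of 0.03. The oligopeptide transporter gene isp4 (0.93), nrg1, listed as SPBPB2B2.01 (0.54), and SPCC794.03 (0.41) rose most as means of the 4 strains. The strains did not share all of these: nrg1 was at −0.56 in 2C/S-H/Y and at 0.48 to 1.15 in the others. SPCC794.03 was at 1.23 in Cdelta53 and at −0.10 to 0.44 in the others. The largest falls of the mean were of SPBPB10D8.01 (−0.53), the peptide transporter gene ptr2 (−0.44) and pgt1 (−0.43). The first of these was at −2.26 in 2C/S-H/Y and at −0.17 to 0.28 in the other strains, and pgt1 was at 0.37 in Cdelta94. Of 22 regulators of the nitrogen and amino acid response, 7 rose, 5 fell and 10 did not pass, with a median of 0. The protease gene isp6 (0.66), sck1, a protein kinase gene (0.28), and gcn2, the eIF2 alpha kinase gene (0.22), rose most, and gaf1 (−0.62), ste11, the regulator of sexual differentiation (−0.60), and any1, an arrestin (−0.25), fell most. The time course differed between strains for 15 of the 32, 15 of the 21 and 11 of the 22, beside the 52.6% of all features.

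**Figure D5:**
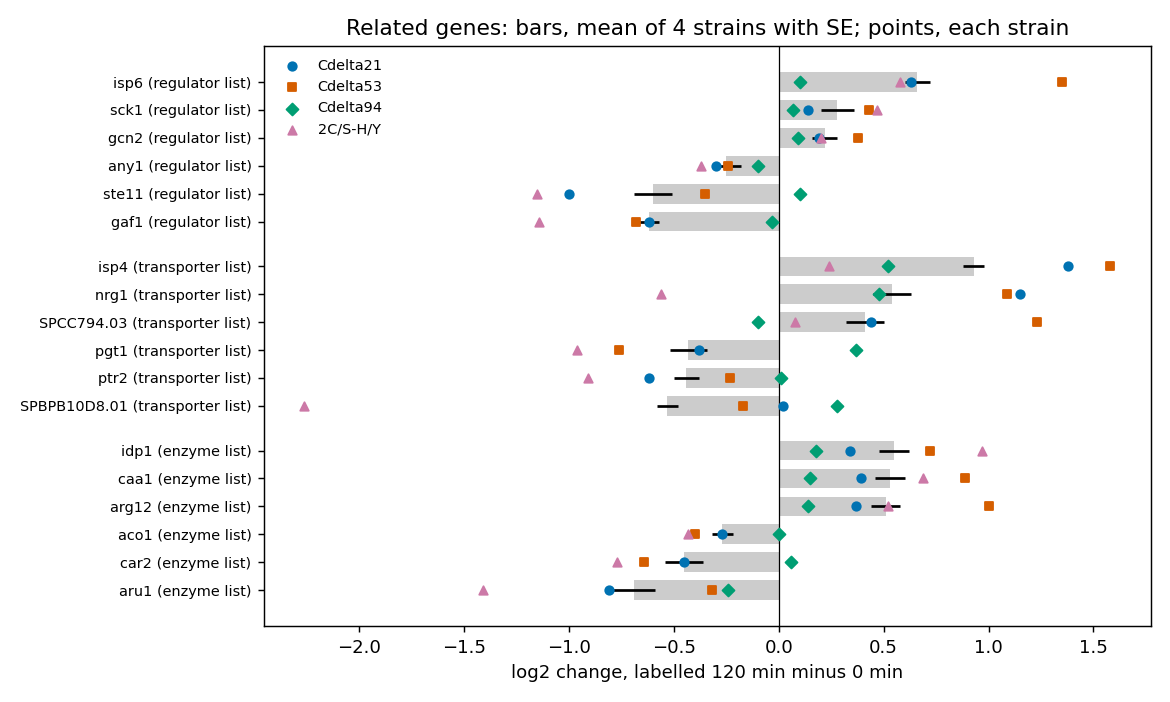
Log2 change from 0 to 120 min in hydroxyurea (horizontal axis) of the named genes of the 3 related lists, with points for the 4 strains and a bar for their mean with its SE. Values of the strains spread widely for SPBPB10D8.01, which is at −2.26 in 2C/S-H/Y and at −0.53 as a mean.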

How the data were processed

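Total RNA of 40 samples was hybridised to two-colour arrays against a pooled wild-type reference. The authors deposited 1 table of log2 ratios, with 1 value per probe and array; the base was read from the values (100% of those below 0 were whole multiples of 0.001 as powers of 2, within 0.02 of that step). Not given in the sources used here are the scanner, the background correction, the normalization and the direction of the ratio. The direction was taken as Cy5 over Cy3, strain over reference. Whether the arrays of a group come from separate cultures is not stated, so the p-values cover only array-to-array spread, possibly technical. The number of arrays limits the precision.

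The 2 probes of a gene were averaged per array. Kept were features measured in every group and on 80% or more of the arrays (5004 of 5042). The linear model of limma 3.58.1 (R 4.3.3, empirical Bayes variances) had a mean for each of 20 groups and 20 residual degrees of freedom, with Benjamini-Hochberg adjustment over the 5004 features and a threshold of 0.05. "Higher", "lower", "rose" and "fell" refer to it in tested comparisons. Standard errors and 95% intervals are limma's. In the comparison with the reference, the reference stands as 1 control, without its own spread or any effect of the dyes. Strain and batch cannot be told apart, since the labels give no batch. The scripts were tested on simulated data.

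The interaction tests of gdh2 and aat1 are not reported, since these genes were chosen by their change in hydroxyurea. The 8 genes and the lists of related genes were chosen with earlier results of these data known. Named genes were the 8 members, up to 3 of the largest rises and 3 of the largest falls of each list, and the 5 genes most correlated with gdh2 and aat1. Of the 35, 31 and 22 names on the lists, 32, 21 and 22 were matched and tested; 1 transporter name was left out because the gene table gives it another symbol of unrelated kind. The alternatives were other normalizations, single probes, near-repeats counted once, a replicate block, no filter, smaller fits, each strain or array left out and the doubtful Cdelta94 times left out.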

Additional observations from a re-analysis of the deposited data

Results flagged for a closer look

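The time course in hydroxyurea differed between the 4 strains, by limma's interaction F test with Benjamini-Hochberg adjustment, for 4 of the 6 genes other than gdh2 and aat1, beside 52.6% of all features tested. The adjusted p was 0.000367 for gln1, 1.29e-06 for glt1, 1.53e-07 for isp5 and 7.77e-08 for put4. The Cdelta94 times in doubt, the near-repeat arrays and, in 2C/S-H/Y, the arrays at 0 min all enter these tests. All 4 genes passed without the Cdelta94 arrays labelled 30 and 120 min, where gln1 had the highest adjusted p (0.00453). The part of the 2C/S-H/Y arrays at 0 min was not tested. Without 2C/S-H/Y, an alternative chosen after seeing the data, the adjusted p was 0.0112 for put4, 0.0013 for isp5, 0.00155 for gln1 and 6.13e-07 for glt1. There gdh1, which did not pass over all strains (0.101), passed at 0.00418.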

How the results depend on the processing

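Of 160 results on single genes, 97 counted as unchanged under every alternative run, and 55 crossed the threshold under at least 1. Unchanged meant the same side of the threshold, and no turn of direction in a difference that passed in either fit. Turns of direction in differences that passed in neither fit were not counted. The mean changes to 120 min over the 4 strains were judged by their shift instead, against the mean SD between arrays of a group. These counts include time-course results of gdh2 and aat1, which are not used as tests. By this rule the direction turned for aat1 in the 120 min change of Cdelta21 minus Cdelta53, from 0.08 to −0.51 after quantile normalization. A turn outside this rule was that of gdh2 in the 120 min change of Cdelta53 minus 2C/S-H/Y, from 0.29 to −0.22. For cat1 in Cdelta21 against the reference, the 2 probes had opposite directions, at 0.29 and −0.30, around a mean of 0.00. With only the 0 min groups fitted, 6 genes in place of 3 passed against the reference in Cdelta53 and 7 in place of 4 in 2C/S-H/Y. With the second probe only, 2 passed in 2C/S-H/Y; isp5 has no value there because that probe lacks the Cdelta53 0 min group. Leaving out each of the 40 arrays gave 3 to 4 genes in Cdelta21, 2 to 4 in Cdelta53, 6 to 7 in Cdelta94 and 2 to 4 in 2C/S-H/Y; the 2 came without the second 0 min array. Counts for the interaction are not given here, since they would include gdh2 and aat1. With the replicate number as a block the interaction of gdh1 had an adjusted p of 0.0488. The numbers were not shown to pair arrays: deviations of same-numbered arrays correlated at −0.43 to 0.65 between groups (median 0.04), with 50 of 190 pairs over 0.1. Arrays without signal intensities give no distance from background.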
